A study of Mus musculus with 12 samples.

Results

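The genes described here are 10 neighbours on distal mouse chromosome 7, out of 39179 gene IDs in the count tables: the TNF receptor genes Tnfrsf26, Tnfrsf22 and Tnfrsf23, the tetraspanin genes Tspan32 and Cd81, and Tssc4, Cdkn1c, Phlda2, Nap1l4 and Osbpl5. They were picked by Ensembl ID from a list of names. That list had been drawn up after differences between NKG2D-deficient and wild-type cells had been seen in the same libraries, so every value of that contrast for these genes is given as a description, with no test. The members span 752 kb (GRCm38), and 8 of the 10 passed the filter on low counts, while Cdkn1c and Phlda2 did not. RNA was sequenced from T helper cells bearing the OT-II receptor for an ovalbumin peptide, in 4 groups of 3 samples: Th17 KO, Th17 WT, Th1 KO and Th1 WT. KO cells came from OT-II x NKG2D-/- mice and were sorted by the Thy1.1 allele. WT cells came from C57BL/6 x OT-II mice and were sorted as Thy1.2 and NKG2D positive. KO and WT cells shared their cultures, where the peptide was shown by added antigen-presenting cells and CD28 was engaged by an antibody, through polarization on days 0 and 5 until the sort on day 8. Th17 medium held IL-1b, IL-6 and IL-23 with antibodies against IFNg and IL-4, and IL-12 after the second triggering, and Th1 medium held IL-2 and IL-12 with an antibody against IL-4. Genotype, Thy1 allele, NKG2D gate and mouse stock change together between KO and WT, so their parts cannot be told apart. The labels give no ages and do not say which samples came from separate cultures or mice, and p-values then reflect sample-to-sample spread alone, possibly a technical one.

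TNF receptor superfamily members bind trimeric ligands, and some of them start cell death through a cytoplasmic death domain. The mouse proteins of Tnfrsf22 and Tnfrsf23 bind the death ligand TRAIL but have no death domain, so they are known as decoy receptors, and Tnfrsf26 encodes a related receptor beside them. Tetraspanins are membrane proteins that gather partner proteins into patches. Tspan32 is a blood-cell tetraspanin that restrains T cell proliferation in mice, and Cd81 is a costimulatory molecule on T cells. The region is the mouse imprinted domain ruled by the long noncoding RNA Kcnq1ot1, which is made from the paternal chromosome. Cdkn1c, a brake on cyclin-dependent kinases, and Phlda2, a brake on placental growth, are expressed from the maternal copy, and several flanking genes are imprinted mainly in the placenta.

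Library totals ran from 9108203 to 12688637 counts in Th1 and from 10405299 to 11587560 in 3 of the Th17 libraries. The other 3 Th17 libraries were shallow, Th17 KO 2 with 1722228, Th17 WT 2 with 2731909 and Th17 WT 3 with 1647232 counts, and 1 gene ID took 51%, 18.3% and 48.1% of them in that order. In Th17 KO 2 and Th17 WT 3, 3 counts equal 3.15 and 3.11 CPM (read counts scaled to a common library size, with TMM factors), so levels there rest on few reads. The targeted gene Klrk1, which encodes NKG2D, averaged 2.35 ± 0.902 CPM in Th17 KO and 135 ± 5.46 CPM in Th17 WT, and 4.84 ± 1.32 CPM in Th1 KO and 149 ± 17.9 CPM in Th1 WT (SD, n = 3 each here and below). Summed T cell markers reached 9430 to 11100 CPM in every library, and all 8 markers had a count in each group.

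The 3 receptor genes lie side by side on the minus strand: Tnfrsf26 (ENSMUSG00000045362) at chr7:143607659-143628722, Tnfrsf22 (ENSMUSG00000010751) at chr7:143634806-143649661 and Tnfrsf23 (ENSMUSG00000037613) at chr7:143665809-143685872. How alike they are bears on which of the copies a sequencing read of 75 bases can be assigned to. Over aligned coding sequence of GENCODE M21 transcripts, Tnfrsf22 and Tnfrsf23 were 90.7% identical with an unbroken identical run of 102 bases. Tnfrsf26 was 58.5% identical to Tnfrsf22 and 56.5% to Tnfrsf23, with runs of at most 10 bases. Of the distinct windows of 75 bases in the annotated transcripts, 527 were common to Tnfrsf22 (of 4179) and Tnfrsf23 (of 4029), and none of the 3143 windows of Tnfrsf26 occurred in either. With all other genes counted, 1137 windows of Tnfrsf22 (27.2%) and 552 of Tnfrsf23 (13.7%) occurred elsewhere. For Tnfrsf26 it was 35 windows (1.11%), in E230032D23Rik. Counts of Tnfrsf22 and Tnfrsf23 are therefore uncertain where reads could fall on both or on other genes, and those of Tnfrsf22 the most. The treatment of such reads is not given in the sources used here. Tnfrsf26 shares no exact read-length sequence with Tnfrsf22 or Tnfrsf23.

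Tnfrsf26 was close to undetected in KO cells of both cultures. Its level was 0.623, 0 and 0.336 CPM in the 3 Th17 KO libraries, against 28, 28.1 and 26 CPM in Th17 WT. In Th1 it was 0.0945, 0.139 and 0.162 CPM in KO libraries, against 36.4, 38.6 and 39.1 CPM in WT. No KO library came near a WT library, and the WT libraries of a culture lay close together although 1 of them, Th17 WT 3, held only 25 Tnfrsf26 counts. Summed over libraries and scaled for depth, Tnfrsf26 in Th17 KO was 1.67% of Th17 WT (95% counting interval 0.857 to 2.95), from 12 against 427 counts. In Th1 KO it was 0.352% of Th1 WT (0.114 to 0.823), from 5 against 1558 counts. These intervals cover counting error only. The fitted log2 fold change was -5.86 ± 0.22 (SE) in Th17 and -8.02 ± 0.21 in Th1. As RNA was measured in bulk, fewer expressing cells and less RNA per cell cannot be told apart, here or below.

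Tnfrsf23 was also low in KO cells, from a far lower WT level. It had 0.0779, 0 and 0.168 CPM in Th17 KO, against 3.3, 1.58 and 3.11 CPM in Th17 WT. In Th1 it had 0.189, 0.278 and 0.323 CPM in KO, against 3.92, 5.25 and 6.52 CPM in WT. Neither pair of groups overlapped, but the Th17 values rest on 3 counts in KO against 46 in WT, of which Th17 WT 1 gave 39. The scaled sums put Tnfrsf23 in KO at 3.88% of WT in Th17 (0.772 to 12.1) and at 5.1% in Th1 (2.41 to 9.56). Its log2 fold change was -4.50 ± 0.59 in Th17 and -4.23 ± 0.35 in Th1. The Th17 value was -5.11 without Th17 KO 3 and -3.67 with limma-voom.

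Tnfrsf22, which lies between the other 2 receptor genes, did not share this pattern. It had 1.79, 3.15 and 2.44 CPM in Th17 KO, against 3.05, 4.35 and 3.11 CPM in Th17 WT, and the groups overlapped through Th17 KO 2, a library with 3 Tnfrsf22 counts. In Th1 the order was the other way round, with 5.95, 7.37 and 9.45 CPM in KO, against 4.79, 3.6 and 4.44 CPM in WT and no overlap. The log2 fold change was -0.62 ± 0.32 in Th17 and 0.83 ± 0.19 in Th1. The difference between those differences was -1.45 ± 0.38 with an adjusted p of 0.0774 by edgeR's quasi-likelihood test, so it missed the threshold of 0.05. Its adjusted p ran from 0.0206 (no filter on low counts) to 0.217 over 18 alternatives, and was 0.0478 without Th1 KO 1.

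**Figure D1:**
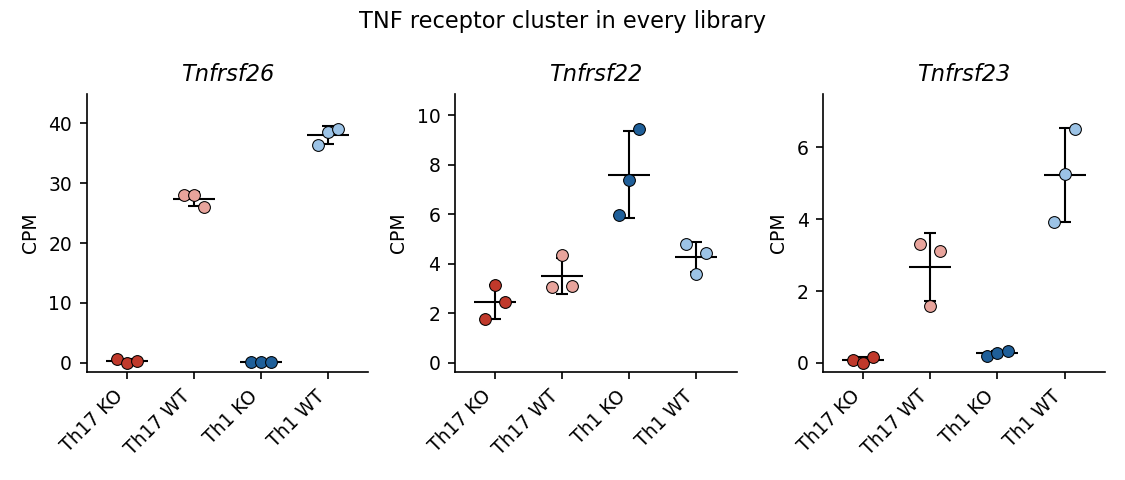
TMM-scaled CPM of Tnfrsf26, Tnfrsf22 and Tnfrsf23 in the 12 libraries, with the mean (long bar) and SD (whiskers) of 3 libraries per group and a separate linear axis for each gene. Tnfrsf26 and Tnfrsf23 lay near 0 in all 6 KO libraries, while Tnfrsf22 was measured in every group and was highest in Th1 KO.

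Tspan32 (ENSMUSG00000000244, chr7:143005046-143019644, plus strand) was lower in KO in both cultures, by unequal amounts. Its level was 14.9, 23.1 and 15.3 CPM in Th17 KO, against 40.8, 42.7 and 44.6 CPM in Th17 WT. In Th1 it was 0.284, 0.417 and 0.242 CPM in KO, against 7.04, 6.82 and 6.11 CPM in WT. The groups did not overlap in either culture. The 3 Th17 KO libraries kept 34.8%, 54.1% and 35.8% of the Th17 WT mean, where 54.1% is from 22 counts in the shallow Th17 KO 2. The 3 Th1 KO libraries kept 4.26%, 6.27% and 3.64% of the Th1 WT mean, from 3 to 6 counts each. The log2 fold change was -1.42 ± 0.13 in Th17 and -4.32 ± 0.26 in Th1. Of its 6234 exon bases, 271 are shared with Tspan32os on the other strand, whose reads cannot be told from its own without strand.

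The difference between the genotype differences of Tspan32, Th17 minus Th1, was 2.90 ± 0.33 on the log2 scale (adjusted p = 1.21e-05 by edgeR's quasi-likelihood test). For every member, this difference is built from KO and WT values that were known when the members were chosen. Its p-values and the shares of all genes are therefore given as a description and are no independent support. The adjusted p ran from 1.38e-12 to 0.000174 over 18 alternatives, including each library left out in turn, and the value from 2.74 to 3.19. Of the 8 members tested, Tspan32 was the 1 gene past the threshold for this difference, against 0.591% of all 12189 genes tested, and it was past it upward, as 0.115% of all genes were. No member was past it downward in the edgeR fit, where 0.476% of all genes were, but Tnfrsf22 had an unadjusted p of 0.000686 and Osbpl5 of 0.0181. Tnfrsf26 had a value of 2.16 ± 0.59 with an adjusted p of 0.129, where the KO side rests on 12 counts in Th17 and 5 in Th1. Tnfrsf23 had -0.27 ± 0.76 (adjusted p = 0.978; interval of 2 SE, -1.79 to 1.25), a width that leaves large differences in either direction undetectable at this depth.

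**Figure D2:**
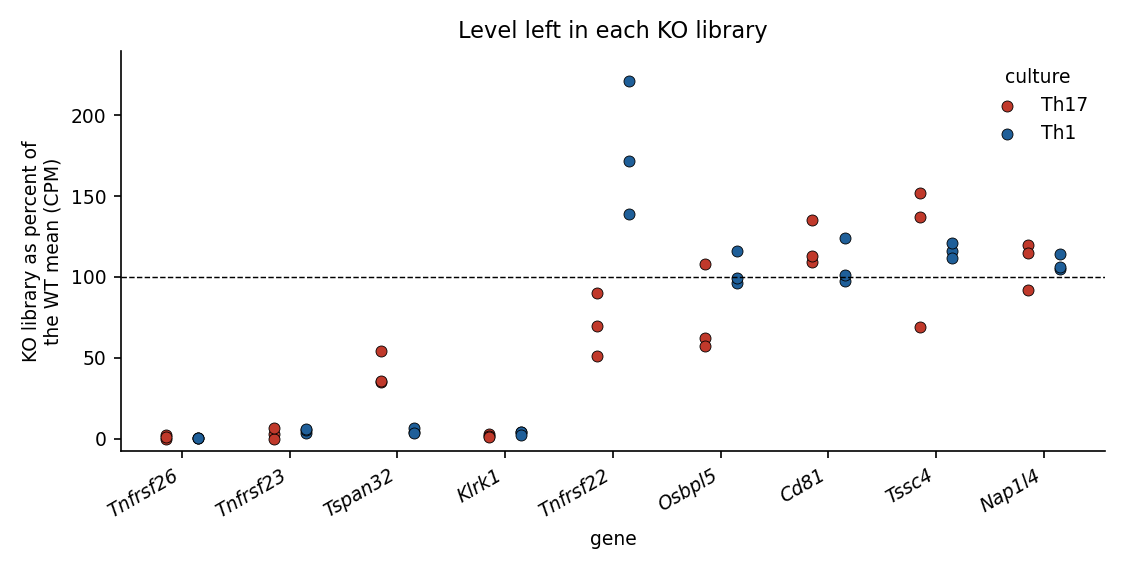
Level in each KO library as a percentage of the mean CPM of the 3 WT libraries of the same culture (linear axis, dashed line at 100%), for the 8 members that passed the filter and for the targeted gene Klrk1. Tnfrsf26, Tnfrsf23 and Klrk1 lay near 0 in both cultures, and Tspan32 lay near 0 in Th1 only, with 34.8% to 54.1% left in Th17.

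The 300 bases around the start of Tspan32 and of Tnfrsf23 are shown because both genes were lower in KO in both cultures. They are RefSeq promoters (GRCm38.p6), 250 bases before to 50 after the start, at chr7:143004796-143005095 on the plus strand for Tspan32 and chr7:143685826-143686125 on the minus strand for Tnfrsf23. Tnfrsf23, Tspan32, Cd81, Tssc4, Phlda2 and Osbpl5, 6 of the 10 members, matched an entry of the table. Capitals mark matches to 3 motifs searched on both strands: TGANTCA for AP-1, TTCNNNGAA for STAT and TGTGGT for RUNX, and no match overlapped another.
Tspan32: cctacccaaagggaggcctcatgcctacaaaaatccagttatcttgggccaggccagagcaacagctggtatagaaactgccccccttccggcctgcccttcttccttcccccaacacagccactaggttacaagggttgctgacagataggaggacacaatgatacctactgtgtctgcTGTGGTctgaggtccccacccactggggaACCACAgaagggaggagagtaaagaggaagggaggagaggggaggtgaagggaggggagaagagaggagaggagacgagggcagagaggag
Tnfrsf23: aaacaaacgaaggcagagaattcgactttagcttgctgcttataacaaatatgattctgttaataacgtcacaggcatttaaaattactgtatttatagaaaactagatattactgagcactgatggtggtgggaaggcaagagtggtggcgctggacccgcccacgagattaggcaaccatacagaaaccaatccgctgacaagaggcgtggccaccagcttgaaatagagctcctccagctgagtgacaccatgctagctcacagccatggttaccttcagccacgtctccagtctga
Tspan32 held 2 RUNX matches and Tnfrsf23 none of the 3 motifs. Of 32851 promoters of the same length, 16.8% held the RUNX letters, 8.3% the STAT letters and 7.81% the AP-1 letters. The Tspan32 promoter held 2 CpG dinucleotides, fewer than most (14.1% of promoters held fewer), and that of Tnfrsf23 held 9, against a median of 7 over the table. A match is a description of letters and shows no binding.

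The remaining members did not share the large KO differences. Cd81 (chr7:143052739-143067934) had 103, 128 and 108 CPM in Th17 KO, against 96.4, 89.8 and 98.6 CPM in Th17 WT. In Th1 it had 10.2, 13.1 and 10.7 CPM in KO, against 11.8, 10.2 and 9.5 CPM in WT. The KO libraries lay above WT in Th17 and overlapped with WT in Th1, with log2 fold changes of 0.20 ± 0.09 and 0.12 ± 0.11. Nap1l4 (chr7:143513579-143549106), a histone chaperone, averaged 110 ± 15 CPM in Th17 KO and 100 ± 10.2 CPM in Th17 WT, and 140 ± 5.99 CPM in Th1 KO and 129 ± 2.64 CPM in Th1 WT. Tssc4 (chr7:143069249-143071093), a factor in the assembly of the U5 splicing particle, averaged 18.2 ± 6.77 CPM in Th17 KO and 15.3 ± 1.53 CPM in Th17 WT, and 21.6 ± 0.807 CPM in Th1 KO and 18.5 ± 1.21 CPM in Th1 WT. Both genes overlapped in Th17 and lay above WT without overlap in Th1, Nap1l4 by 0.12 ± 0.07 and Tssc4 by 0.22 ± 0.11 on the log2 scale. Tssc4 shares 220 exon bases with Trpm5 and Cd81 shares 104 with R74862, both on the opposite strand.

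Osbpl5 (chr7:143688762-143756985) encodes a lipid transfer protein of contacts between the endoplasmic reticulum and the plasma membrane. It had 4.83, 8.4 and 4.45 CPM in Th17 KO, against 6.95, 9.1 and 7.27 CPM in Th17 WT. The groups overlapped only through Th17 KO 2, where the value rests on 8 counts. In Th1 it had 31.7, 32.7 and 38.3 CPM in KO, against 26.6, 34.1 and 37.9 CPM in WT, which overlapped. Its log2 fold change was -0.62 ± 0.24 in Th17 and 0.06 ± 0.11 in Th1.

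The maternally expressed growth brakes were at the limit of detection. Cdkn1c (chr7:143458339-143461050) had 4, 0 and 0 counts in Th17 KO, against 2, 0 and 0 in Th17 WT. In Th1 it had 0, 1 and 2 counts in KO, against 4, 0 and 2 in WT. Phlda2 (chr7:143501545-143503150) had 1 count in all, in Th1 WT 3, and none in the Th17 KO, Th17 WT and Th1 KO groups. A group sum of 0 allows up to 3 counts, equal to 0.117 CPM in Th17 KO, 0.196 CPM in Th17 WT and 0.0803 CPM in Th1 KO. No genotype difference was detectable for either gene at this depth.

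Counted over the 10 members, 3 lay lower in KO than WT without overlap in Th17 (Tnfrsf26, Tnfrsf23 and Tspan32), where 9.59% of all genes tested did so, and 1 lay higher (8.94% of all genes). In Th1 the same 3 lay lower (13.4% of all genes) and 3 lay higher (11.1%). Lower in both cultures without overlap were 3 members and 3.65% of all genes. The members were chosen on this contrast, so nothing is read from these shares. Leaving out the 3 shallow libraries, or Th17 KO 2 alone, made the Th17 count 5, with Tnfrsf22 and Osbpl5 added. Groups of fewer libraries avoid overlap more easily, and the share of all genes was not computed for these settings. Nothing is read from that count either.

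**Figure D3:**
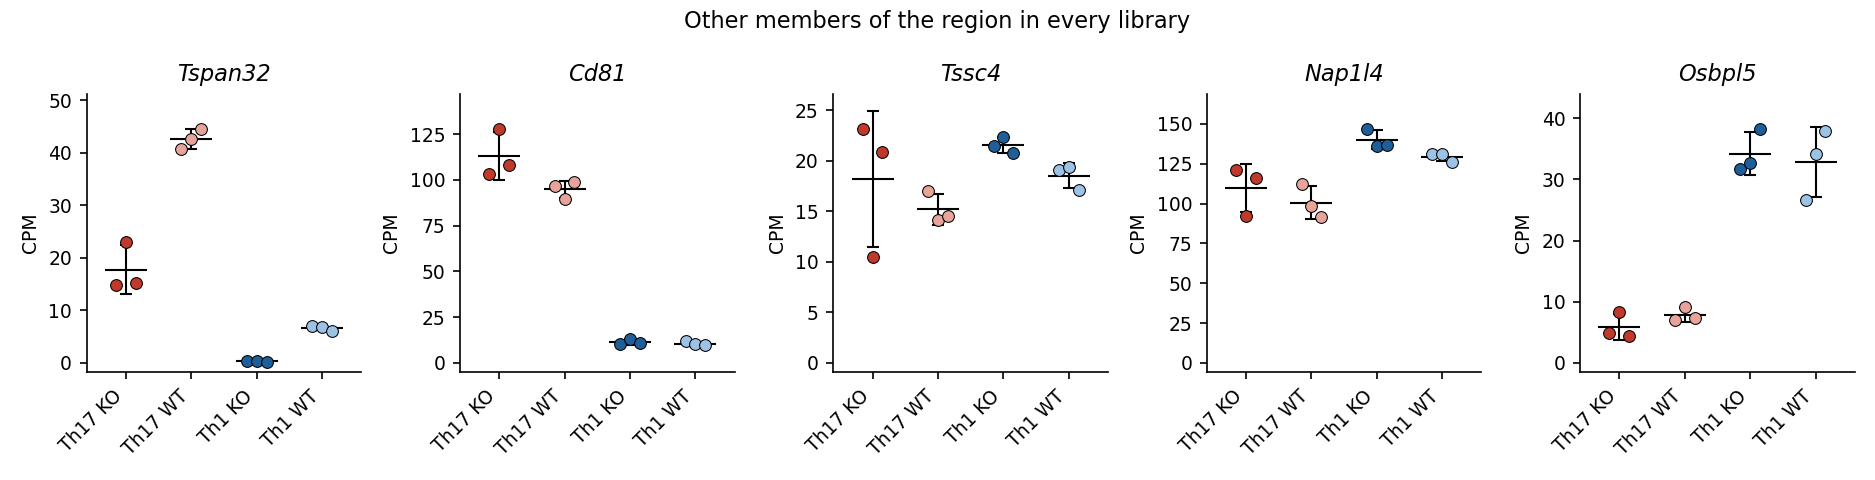
TMM-scaled CPM of Tspan32, Cd81, Tssc4, Nap1l4 and Osbpl5 in the 12 libraries, with the mean (long bar) and SD (whiskers) of 3 libraries per group and a separate linear axis for each gene. Tspan32 separated KO from WT in both cultures, and Tspan32, Cd81, Nap1l4 and Osbpl5 separated Th17 from Th1 in both genotypes.

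The orders that follow are of the 8 members that passed the filter. Per kb of exon, Cd81 (39.3 CPM per kb) and Nap1l4 (35.4 CPM per kb) had the highest mean levels in Th17 KO, and Cd81 (33 CPM per kb) and Nap1l4 (32.5 CPM per kb) in Th17 WT. In Th17 WT, Tnfrsf26 (8.5), Tssc4 (8.28), Tspan32 (6.85), Osbpl5 (1.58), Tnfrsf22 (0.831) and Tnfrsf23 (0.673 CPM per kb) followed. In Th17 KO the order below Nap1l4 was Tssc4 (9.87), Tspan32 (2.85), Osbpl5 (1.2), Tnfrsf22 (0.583), Tnfrsf26 (0.0993) and Tnfrsf23 (0.0207 CPM per kb). In Th1 KO the order was Nap1l4 (45.3 CPM per kb), Tssc4 (11.7), Osbpl5 (6.96), Cd81 (3.93), Tnfrsf22 (1.8), Tnfrsf23 (0.0665), Tspan32 (0.0504) and Tnfrsf26 (0.0409 CPM per kb). Th1 WT gave Nap1l4 (41.8 CPM per kb), Tnfrsf26 (11.8), Tssc4 (10), Osbpl5 (6.69), Cd81 (3.65), Tnfrsf23 (1.32), Tspan32 (1.07) and Tnfrsf22 (1.01 CPM per kb). Tnfrsf26 thus stood next after the most abundant member or pair in WT cells and among the last in KO cells. Libraries overlapped between Cd81 and Nap1l4 in both Th17 groups, between Tnfrsf26 and Tssc4 in Th17 WT, between Tnfrsf22 and Tnfrsf23 in Th17 WT, and among Tnfrsf23, Tspan32 and Tnfrsf22 in Th1 WT. In KO they overlapped between Tnfrsf26 and Tnfrsf23 in Th17 and among Tnfrsf23, Tspan32 and Tnfrsf26 in Th1.

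Between cultures, Cd81 and Tspan32 were the members that separated Th17 from Th1 upward in both genotypes. This contrast was not used to choose the members and was tested over all genes. Cd81 averaged 113 ± 13.2 CPM in Th17 KO and 11.3 ± 1.54 CPM in Th1 KO, a log2 fold change of 3.25 ± 0.10 (adjusted p = 1.59e-19). In WT it averaged 94.9 ± 4.61 CPM in Th17 and 10.5 ± 1.19 CPM in Th1, a change of 3.17 ± 0.10 (adjusted p = 1.52e-18). The difference between the genotypes in this change was 0.08 ± 0.14 (adjusted p = 0.94; interval -0.21 to 0.37). Tspan32 averaged 17.8 ± 4.64 CPM in Th17 KO and 0.314 ± 0.0913 CPM in Th1 KO, a change of 5.56 ± 0.24 (adjusted p = 2.94e-16). In WT it averaged 42.7 ± 1.95 CPM in Th17 and 6.65 ± 0.487 CPM in Th1, a change of 2.66 ± 0.13 (adjusted p = 1.29e-14).

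Osbpl5 and Nap1l4 fell in Th17 in both genotypes. Osbpl5 averaged 5.89 ± 2.18 CPM in Th17 KO and 34.2 ± 3.57 CPM in Th1 KO, a log2 fold change of -2.83 ± 0.16 (adjusted p = 2.16e-12). In WT it averaged 7.77 ± 1.16 CPM in Th17 and 32.9 ± 5.79 CPM in Th1, a change of -2.15 ± 0.18 (adjusted p = 1.14e-09). Nap1l4 changed by a small amount, -0.30 ± 0.07 in KO (adjusted p = 0.00138) and -0.32 ± 0.08 in WT (adjusted p = 0.00139). Tssc4 did not pass in either genotype, with -0.03 ± 0.12 in KO (interval -0.26 to 0.21) and -0.20 ± 0.14 in WT (interval -0.48 to 0.08).

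Among the receptor genes, Tnfrsf26 was lower in Th17 WT (27.4 ± 1.22 CPM) than in Th1 WT (38 ± 1.41 CPM), a log2 fold change of -0.45 ± 0.11 (adjusted p = 0.00109). In KO the fitted change was 1.71 ± 0.58 (adjusted p = 0.0264), on 12 counts in Th17 against 5 in Th1, and the libraries overlapped. The adjusted p was 0.329 without Th17 KO 1, 0.0661 without Th1 KO 1 and 0.0572 without Th1 KO 2. Tnfrsf26 passed the filter through its WT counts, and a fit of the KO groups alone gave no value for it. The KO value is therefore not read as a difference between the cultures. Tnfrsf23 was lower in Th17 WT (2.67 ± 0.945 CPM) than in Th1 WT (5.23 ± 1.3 CPM) by 0.84 ± 0.29 on the log2 scale (adjusted p = 0.0193). The adjusted p became 0.0975 with DESeq2, 0.117 without the 3 shallow libraries, 0.101 without Th1 WT 3 and 0.0792 without Th17 WT 2. In KO, Tnfrsf23 had too few counts for a call (-1.12 ± 0.83, adjusted p = 0.27). Tnfrsf22 was lower in Th17 KO (2.46 ± 0.68 CPM) than in Th1 KO (7.59 ± 1.76 CPM), a change of -1.82 ± 0.24 (adjusted p = 5.63e-07). In WT its change was -0.37 ± 0.27 (adjusted p = 0.285; interval -0.91 to 0.18).

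In KO, 3 of the 8 tested members were past the threshold upward in Th17 and 3 downward, where 26.9% and 26.7% of all genes were (53.6% in either direction). Tnfrsf26 was among the 3 upward, on 12 counts in Th17 KO against 5 in Th1 KO, which is not read as a difference. With only the KO groups fitted, 2 members were past the threshold upward, and Tnfrsf26, whose counts lie mostly in WT, gave no value. In WT, 2 were past it upward and 4 downward, against 23.5% and 23.6% of all genes (47.1% in either direction). The median log2 change of the 8 was -0.16 in KO and -0.34 in WT, against 0 and -0.01 over all genes tested. The summed level of 11 antigen-presenting and myeloid markers was 96.1 to 114 CPM in Th17 KO and 43.3 to 53.7 CPM in Th1 KO. It was 69.6 to 109 CPM in Th17 WT and 34.7 to 40 CPM in Th1 WT. Single markers were not compared, so which of them carried the sum is not known. Of the 11 markers, 10 had a count in Th17 KO and in Th17 WT, 8 in Th1 KO and 7 in Th1 WT. Clec9a was at 0 in every library and Csf1r in every Th1 library. Their part in these differences was not tested.

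**Figure D4:**
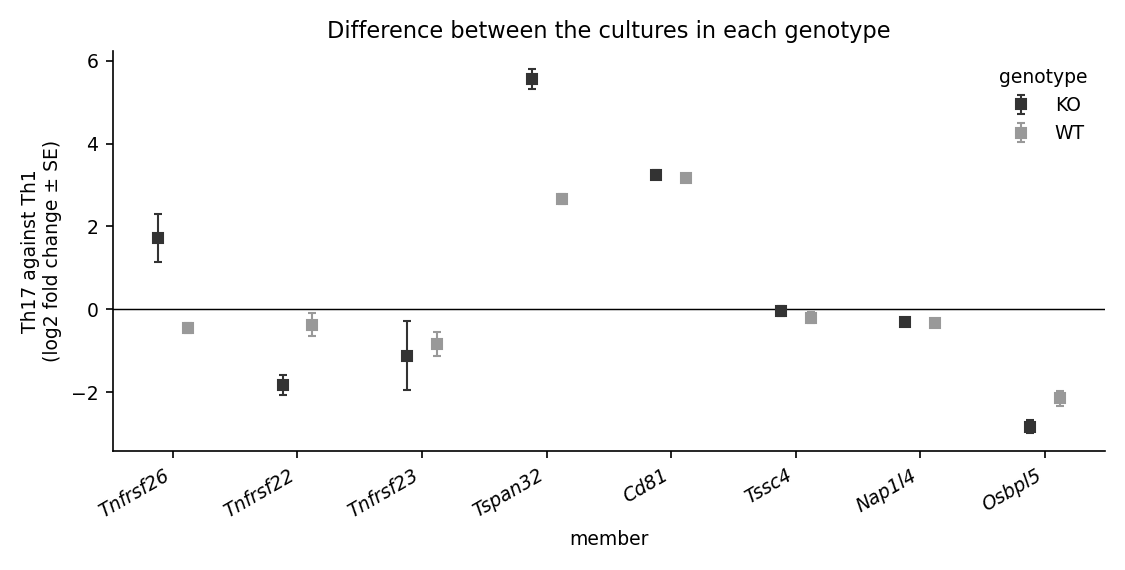
Log2 fold change of Th17 against Th1 (± SE, from the fit on 12 libraries) for the 8 tested members in KO and in WT. Tspan32 stood at 5.56 in KO and 2.66 in WT, whereas Cd81 stood at 3.25 and 3.17.

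Along the chromosome, the large KO differences did not form an unbroken run. In order from the proximal side, Tspan32 was followed by Cd81, Tssc4 and Nap1l4, then Cars (cysteinyl-tRNA synthetase, not a member), Tnfrsf26, Tnfrsf22, Tnfrsf23 and Osbpl5. Cars averaged 43.4 ± 1.33 CPM in Th17 KO and 52.4 ± 2.29 CPM in Th17 WT, and 78.9 ± 0.425 CPM in Th1 KO and 67.7 ± 2.84 CPM in Th1 WT. Its log2 fold change was -0.25 ± 0.08 in Th17 (adjusted p = 0.0742) and 0.22 ± 0.06 in Th1 (adjusted p = 0.0325). The difference between them was -0.47 ± 0.10 (adjusted p = 0.0243), and it was not examined under the alternatives. The Th1 call was lost under 7 of 19 alternatives (adjusted p 0.0617 to 0.164): DESeq2, no filter, and without Th1 KO 1, 2 or 3 or Th1 WT 1 or 2.

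Mrgpre (chr7:143778363-143784500), which encodes a Mas-related G protein-coupled receptor, lies just past Osbpl5 and is not a member. It was low in all groups and lower in KO. It had 5, 0 and 3 counts in Th17 KO, against 38, 6 and 2 in Th17 WT. In Th1 it had 0, 3 and 0 counts in KO, against 10, 11 and 14 in WT. Scaled for depth, KO held 10.3% of WT in Th17 (95% counting interval 4.22 to 22.1) and 9.4% in Th1 (1.85 to 29.8). The adjusted p was 0.00033 in Th17 (0.0503 without Th17 WT 1) and 0.0034 in Th1, where Th1 KO 2 held all 3 KO counts. The next tested gene, Nadsyn1, had log2 fold changes of -0.36 ± 0.25 in Th17 and -0.08 ± 0.19 in Th1 and did not pass. On the other side of Tspan32, neither of the nearest tested genes passed: Mrpl23 had -0.02 ± 0.14 in Th17 and 0.13 ± 0.10 in Th1, and Tnnt3 had 0.15 ± 0.43 and 0.21 ± 0.36 in the same cultures. Of 14 genes that lie among the members and are none of them, 13 were not tested, 5 of these without any count and the others with at most 41 counts over the 12 libraries.

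**Figure D5:**
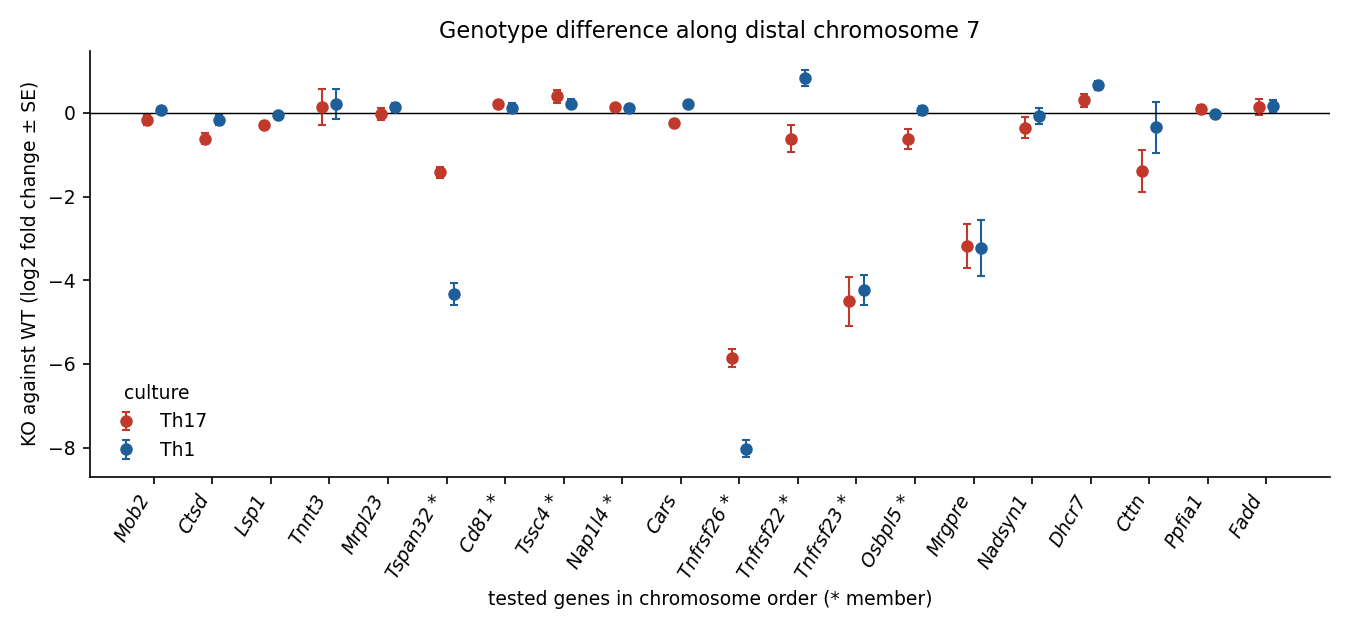
Log2 fold change of KO against WT (± SE, from the fit on 12 libraries) for the 20 tested genes within 1 Mb of the outermost members, in chromosome order with even spacing, an asterisk marking members. Tspan32, Tnfrsf26, Tnfrsf23 and Mrgpre lay below -1 in both cultures, and Cd81, Tssc4, Nap1l4, Cars, Tnfrsf22 and Osbpl5, which lie among them, lay above -1.

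Other genes of these pathways were read from 7 lists, beside 5.83% of all genes past the threshold for KO against WT in Th17 (1.81% higher, 4.02% lower) and 4.61% in Th1 (1.69% higher, 2.92% lower). The list medians lay between -0.25 and 0.13 on the log2 scale, against 0 over all genes in both cultures. Of 12 tested genes within 1 Mb, 3 fell in Th17 KO (Mrgpre, Ctsd and Lsp1), and 2 rose (Dhcr7 and Cars) and 1 fell (Mrgpre) in Th1 KO. The list of other Kcnq1 and Igf2 domain genes, with 7 tested, largely repeats these. Dhcr7, the last enzyme of cholesterol synthesis, rose in Th1 KO by 0.66 ± 0.11 (adjusted p = 0.000317) and had 0.30 ± 0.15 in Th17 (adjusted p = 0.312). Ctsd, a lysosomal protease, fell in Th17 KO by 0.62 ± 0.13 (adjusted p = 0.0169), but was at 0.28 without the 3 shallow libraries, 0.0668 without Th17 KO 1 and 0.0718 without Th17 WT 2. Lsp1, an actin-binding protein of leukocytes, fell by 0.29 ± 0.07 (adjusted p = 0.0216), a call lost under 6 alternatives (adjusted p 0.0612 to 0.178), among them the fits without Th17 KO 1, Th17 KO 3, Th17 WT 2 or Th17 WT 3. Among 18 tested imprinted genes elsewhere, 1 rose in each culture: Dcn in Th17 KO (1.97 ± 0.45, adjusted p = 0.00898) and Igf2r in Th1 KO (0.49 ± 0.11, adjusted p = 0.0183). The Dcn call was lost when Th17 KO 1 or Th17 WT 1 was left out (adjusted p up to 0.155) and with DESeq2 (0.0811). The Igf2r call was lost without Th1 KO 3, Th1 WT 1 or Th1 WT 2 (adjusted p up to 0.0886) and with only the groups compared (0.168). Without the 3 shallow libraries the changes were 1.98 for Dcn and 0.49 for Igf2r.

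Ligands of TNF receptors were among the genes that passed in KO. Of 20 tested genes of death ligand signalling, 2 fell and 1 rose in Th17 KO, and 2 fell in Th1 KO. Fasl, which engages the death receptor Fas, fell in Th17 KO by 1.78 ± 0.25 (adjusted p = 0.000388), or by 1.11 without Th17 WT 1 (adjusted p = 0.0389). The difference between cultures for Fasl was -1.36 ± 0.28 (adjusted p = 0.04), and it was not examined under the alternatives. Tnfsf10, which encodes TRAIL, the ligand of the decoy receptors, fell by 0.99 ± 0.19 in Th17 KO (adjusted p = 0.00162) and by 0.47 ± 0.13 in Th1 KO (adjusted p = 0.0364). Its Th1 call was lost when Th1 KO 1, 2 or 3 or Th1 WT 2 or 3 was left out (adjusted p 0.0631 to 0.198), and with DESeq2 (0.163). Tnfsf11, which encodes RANKL, rose in Th17 KO by 1.56 ± 0.31 (adjusted p = 0.0198), a call lost under 4 of 19 alternatives. The adjusted p was 0.206 without Th17 WT 1, 0.0546 without Th17 WT 2 and 0.0584 with only the groups compared. Without the 3 shallow libraries the change was 1.8. Tnfrsf1b, a TNF receptor without a death domain, fell in Th1 KO by 0.23 ± 0.06 (adjusted p = 0.0276), and 5 alternatives gave 0.0748 to 0.165, including those without Th1 KO 2, Th1 KO 3, Th1 WT 1 or Th1 WT 2.

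Of 11 other tested TNF receptor genes, none passed in Th17, where Cd27 had the smallest p (-0.47 ± 0.16, adjusted p = 0.09), and 2 fell in Th1 KO. These were the costimulatory receptors Tnfrsf14 (-0.46 ± 0.13, adjusted p = 0.0352) and Tnfrsf4 (-0.27 ± 0.08, adjusted p = 0.0397). The first was lost under 6 of 19 alternatives (adjusted p 0.0645 to 0.249) and the other under 10 (0.0533 to 0.313), each time including the fits that left out Th1 KO 1, 2 or 3 or Th1 WT 1 or 2, and for Tnfrsf4 also Th17 KO 2 or Th17 WT 3. Of 19 tested tetraspanin genes and CD81 partners, 1 fell in Th17 KO, the antiviral membrane protein Ifitm3 (-0.32 ± 0.08, adjusted p = 0.0201). Its relative Ifitm1 rose in Th1 KO (0.46 ± 0.11, adjusted p = 0.0294). Ifitm3 was lost under 7 alternatives (0.0513 to 0.341), among them each Th17 library left out other than Th17 KO 3, and Ifitm1 under 5 (0.0766 to 0.126), among them each Th1 library left out other than Th1 KO 3. Among 13 tested paralogues of Cdkn1c, Phlda2, Nap1l4 and Osbpl5, the sterol-binding protein gene Osbpl3 fell in Th17 KO (-0.63 ± 0.13, adjusted p = 0.00312, 0.0787 without the shallow libraries). Osbpl8 fell there too (-0.24 ± 0.07, adjusted p = 0.0369), a call lost under 11 of 19 alternatives (0.0566 to 0.238), among them each Th17 library left out other than Th17 KO 1, and Th1 WT 2. In Th1 KO the cell cycle inhibitor Cdkn1a rose (0.45 ± 0.09, adjusted p = 0.00206). The summed level of 7 markers of NK and innate lymphoid cells was lower in KO. It was 5.06 to 6.47 CPM in Th17 KO and 18 to 24.9 CPM in Th17 WT, and 4.82 to 6.3 CPM in Th1 KO and 9.92 to 11.1 CPM in Th1 WT. Of those 7 markers, 6 had a count in each KO group, 4 in Th17 WT and 5 in Th1 WT, and Ncr1 was at 0 in every library. Tyrobp and Eomes were at 0 in Th17 WT, and Eomes in Th1 WT, but had counts in KO, so not all of these markers moved with the sum. In Th17 WT the sum came from Klrb1c, Klre1, Fcer1g and Kit alone. Single markers were not compared, so the sum is not read as an amount of NK or innate lymphoid cells. The part of these markers in the differences of the listed genes was not tested.

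Over the 12 libraries, the genes whose log2 CPM was most like that of Tnfrsf26 by Pearson's r were Klrk1 (0.973), Ripor2 (0.954), Apaf1 (0.938), Cnn2 (0.928) and Camk2b (0.927). Among the members, Tnfrsf23 had an r of 0.956 with Tnfrsf26, Tspan32 0.526 and Tnfrsf22 -0.178. Among the genes most like Tspan32 were H2-T23 (0.991), Arhgap25 (0.97), Pla2g16 (0.967) and Tgm2 (0.963). Among the members, Cd81 had an r of 0.787 with Tspan32 and Nap1l4 -0.839. H2-T23 encodes a nonclassical MHC molecule. These values describe 12 libraries that fall into 4 groups and share their depth and scaling, and they are not independent of the genotype differences that chose the members.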

How the data were processed

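Poly-A cDNA of 12 sorted samples was made with Smart-Seq v4 and Nextera XT and sequenced as read pairs, per the labels' protocols. The authors deposited raw counts, whole numbers for each Ensembl gene that sum to another total in each sample. TopHat2, Bowtie2 and featureCounts with GRCm38 (mm10) are named per the submitters' processing notes, and versions, annotation release, strand setting and treatment of multi-mapping reads are not given in the sources used here. GENCODE M21 named 37693 of 39179 IDs (96.2%).

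Counts were scaled by TMM and filtered with filterByExpr in edgeR 4.0.16, which left 12189 genes. All 12 samples entered 1 quasi-likelihood fit (robust) with a mean per group. P-values were adjusted by the Benjamini-Hochberg method over all genes tested, with 0.05 as the threshold. SE is the absolute log2 fold change over the root of F, and intervals are 2 SE to each side. Log2 CPM for likeness used a prior count of 2. Ratios of summed counts carry 95% intervals from an exact Poisson comparison of both sums. The tests were run on simulated counts first. With 3 samples a group, the smallest exact permutation p is 0.1. No 2 samples of a group agreed within sampling noise (chi-square per degree of freedom 2.268 to 6.265).

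The members and the gene lists were chosen with earlier results of these data known. From each list, up to 4 genes past the threshold with the smallest p, or the 1 of smallest p, are named; on chromosome 7, tested genes between the outermost members and the nearest 2 on each side; for likeness, the 5 highest r. Some items that met these rules are not reported here. Alternatives were RLE size factors, DESeq2 1.42.0, limma-voom with sample weights (limma 3.58.1), no filter, only the groups compared, no shallow libraries, no dominant ID and each sample left out, and, added after the data were seen, a block by library code. R 4.3.3, Python 3.11.15, Biopython 1.88 and matplotlib 3.10.9 were used.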

Additional observations from a re-analysis of the deposited data

Results flagged for a closer look

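The size of the KO difference of Tspan32 on the log2 scale was not the same in the 2 cultures. The difference between the cultures, Th17 minus Th1, was 2.90 ± 0.33 in edgeR's quasi-likelihood fit (adjusted p = 1.21e-05). The log2 fold change of KO against WT was -1.42 ± 0.13 in Th17 and -4.32 ± 0.26 in Th1. As the gene was chosen with its KO and WT values known, this p is no independent support. All 3 KO libraries lay below all 3 WT libraries in both cultures. The Th1 KO value rests on 12 counts over 3 libraries. Which culture had the larger fall depends on the scale. In mean CPM it was Th17, with 42.7 in WT and 17.8 in KO, against 6.65 and 0.314 in Th1. Groups of 3 are too small for the check on single samples that stand apart.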

How the results depend on the processing

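A replicate block was added after the data were seen. It pairs KO with WT libraries by runs of 3 library codes in the titles, which the labels do not say mark a shared culture, and it gives no value for Th17 against Th1. Deviations of the paired libraries from their group means correlated by -0.06 to 0.23. In Th1 each KO library correlated best with the WT library of its own run (0.14, 0.03 and 0.17), as did Th17 KO 1 (0.23). Th17 KO 2 correlated better with Th17 WT 3 (0.11), which is also shallow, and Th17 KO 3 with Th17 WT 1 (0.09). Whether the codes mark pairs was therefore not settled, and the main fit ignores any such pairing. With the replicate block, the difference between cultures had an adjusted p of 5.2e-08 for Tspan32, 0.0262 for Tnfrsf22 and 0.0673 for Tnfrsf26. It called 1117 genes for KO against WT in Th17 (711 without it) and 1315 in Th1 (562), and 1 member downward for the difference between cultures. Among list genes 5 rose and 14 fell in Th17 KO, and 8 rose and 13 fell in Th1 KO. Every value that follows is without it.

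Over the 8 tested members, 3 contrasts and up to 19 alternatives gave 445 values, of which 425 kept their direction and side of the threshold, 7 lost a call, 2 gained one and 11 changed sign. Every sign change was of a value far from the threshold (adjusted p at least 0.845), and the ranges with a sample left out are given after it: Tssc4 in Th17 against Th1 KO (0.02 without the shallow libraries, 0.03 without Th17 KO 2; -0.14 to 0.03), and the genotype differences Th17 minus Th1 of Tnfrsf23 (0.44 with limma-voom, 0.25 without Th17 WT 1, 0.11 without Th17 KO 1; -0.88 to 0.25), Cd81 (0 without the shallow libraries, -0.02 without Th1 WT 1; -0.02 to 0.22) and Nap1l4 (-0.05 without the shallow libraries, -0.03, -0.01 and -0.02 without Th17 KO 1, Th17 WT 2 and Th17 WT 3; -0.03 to 0.14). Members past the threshold downward for the difference between cultures numbered 0, and 1 with no filter (0 to 1 with a sample left out). Members lower in Th17 KO without overlap numbered 3, and 5 without the shallow libraries (3 to 5 with a sample left out), where fewer libraries make overlap less likely. List genes that rose in Th17 KO numbered 2, against 1 with DESeq2, 4 with no filter, 1 with only the groups compared, 0 without the shallow libraries and 0 to 2 with a sample left out. Those that fell numbered 8, against 5 with only the groups compared, 4 without the shallow libraries and 5 to 8 with a sample left out. In Th1 KO, 5 rose, against 8 with limma-voom, 8 with no filter and 2 to 6 with a sample left out, and 5 fell, against 1 with DESeq2, 9 with limma-voom, 8 with no filter and 1 to 7 with a sample left out. Of these changes the cause was not tested.

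Depth limits the KO values of Tnfrsf26, Tnfrsf23 and Tspan32 in Th1, with 12 or fewer summed counts each, and all 3 shallow Th17 libraries. A fit without them leaves 1 Th17 WT library, assumed to vary like the other groups.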

Other observations

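H19, a maternally expressed noncoding RNA on the same chromosome (chr7:142575529-142578143, GRCm38), was below the filter and was chosen after its counts were seen. It had 0, 0 and 1 counts in Th17 KO, against none in the 3 Th17 WT libraries. In Th1 it had 4, 10 and 2 counts in KO, against none in the 3 WT libraries, so the Th1 groups did not overlap. Of all genes tested, 11.1% lay higher in Th1 KO without overlap, and no share was computed for genes below the filter. No test was made of H19, and nothing is read from its counts.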
